A study of Homo sapiens with 16 samples.

Results

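The genes described here are 49 protein-coding genes of mitosis and the spindle, of 58735 genes in the counts table. They were chosen by symbol from known function and not by a measured value, though with earlier results of these data known. All 49 were found and passed the filter on low counts. By role they fall into mitotic entry (11 genes), the spindle checkpoint (5), the kinetochore (7), the chromosomal passenger complex (4), ubiquitination at anaphase (4), kinesin motors (6), other spindle proteins (8), cytokinesis (2) and chromosome structure (2). Their messenger RNA was read in SW620, an established human line from a colorectal tumour, with a control hairpin of scrambled sequence (scramble) or one against the stress-response transcription factor ATF4 (shATF4). Each line had 3 untreated libraries, 3 after 24 h in 5 µM 5-fluorouracil (5-FU) and 2 after 48 h in 5 µM 5-FU, 16 in all. 5-FU is a pyrimidine analogue. It inhibits thymidylate synthase, which makes a DNA precursor, and also enters RNA and DNA. Every group was SW620 with a hairpin of one kind or the other, and the labels name 1 line of each, so loss of ATF4 cannot be told apart from another difference between the lines. The labels give the untreated cells no time in culture, so the drug cannot be told apart from time. For the libraries titled 48 h a treatment tag reads 24 h, while the titles and the design text speak of 48 h. The labels do not say that replicates were separate cultures, and the p-values therefore speak to the spread among these libraries alone, and that spread may be technical.

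Mitosis begins when cyclin B with its kinase partner is switched on, with help from the CDC25 phosphatases and the kinases PLK1 and AURKA. Spindle microtubules then attach to chromosomes at kinetochores, and the checkpoint proteins hold back CDC20, the activator of the anaphase-promoting complex, until all are attached. Most of these genes are transcribed in a wave in late S phase, G2 and M, through promoters that carry CCAAT boxes and cell cycle homology regions (CHR), at which the MuvB complex acts with B-MYB (encoded by MYBL2) and FOXM1 as activators, or as the DREAM complex, with E2F4 and the RB-like proteins, as a repressor. Thymidylate shortage is known to slow S phase. In a bulk sample fewer cells in mitosis and less of an RNA per cell cannot be told apart.

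ATF4, the target of the hairpin, had 388, 364 and 384 CPM untreated, 270.1, 285 and 280.1 CPM at 24 h and 331 and 333 CPM at 48 h in scramble cells. In shATF4 cells it had 172, 169 and 179 CPM untreated, 91.1, 109 and 130.4 CPM at 24 h and 114 and 118 CPM at 48 h, and every shATF4 library was below every scramble library. Total counts per library ran from 14571611 to 17824188, of which 84350 to 125687 fell on the 49 genes. Levels are CPM on library sizes scaled by TMM, which assumes that most genes do not change. Adjusted p-values come from edgeR (quasi-likelihood F-test, Benjamini-Hochberg over the 17309 genes tested), a gene passed at an adjusted p under 0.05, and ± marks a standard error (SE) of a log2 change unless SD is written. In scramble untreated replicate 2 protein-coding genes of the mitochondrial genome held 1.42% of counts, against 0.753% and 0.766% in its sister libraries, and 1.07% to 1.52% in the 5-FU libraries. In shATF4 24 h replicate 3 CKS1B, CKS2, BUB3, MAD2L1 and CCNB2 stood above both other replicates. Counts of genes that moved by over 1.5 times without these 2 libraries are given with and without them. The 24 h changes of CKS2 and CCNB2 against untreated shATF4 cells are given only with replicate 3 included. Of 8 epithelial markers the keratins KRT8, KRT18 and KRT19, with EPCAM, CDH1 and VIL1, were present in all groups. CDX2 (11.1 to 35.6 CPM) and VILL (0.273 to 6.25 CPM) were low. In scramble cells CDH1 had 187, 188 and 194 CPM untreated and 411, 426 and 418 CPM at 24 h. VIL1 had 494, 515 and 467 CPM untreated and 178 and 176 CPM at 48 h there. KRT8 was the largest part of the summed level. The summed level of 8 epithelial markers was 11091 to 12470 CPM in untreated, 8877 to 9446 CPM in 24 h and 7315 to 7496 CPM in 48 h libraries of scramble cells, and 11180 to 11749, 10151 to 10819 and 6508 to 6970 CPM in shATF4 cells. In scramble cells 4 of the 8 were lower and 2 higher at 24 h and 5 lower and 3 higher at 48 h, with medians of -0.24 and -0.42. Over all genes tested 22.2% were lower and 21.8% higher at 24 h there, and 30.0% and 30.6% at 48 h. The part of the markers' changes in the members' changes was not tested. HBB and COL3A1 were at 0 in all 16 libraries. The summed level of 7 markers of blood, vessel and connective tissue cells was 9.90 to 14.6 CPM in untreated and 16.7 to 26.5 CPM in 5-FU libraries, mostly from COL1A1.

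The summed level of the 49 genes was lower with 5-FU. It was 8154, 7925 and 8419 CPM in untreated scramble libraries, 6073, 6016 and 6054 CPM at 24 h and 6543 and 6475 CPM at 48 h. In shATF4 cells the sums were 7987, 7577 and 7663 CPM untreated, 6145, 5829 and 5932 CPM at 24 h and 6644 and 6538 CPM at 48 h. No 5-FU library overlapped the untreated libraries of its line. On unscaled counts the order at 48 h differed: the genes took 0.698% to 0.748% of all counts in untreated libraries, 0.572% to 0.632% at 24 h and 0.739% to 0.762% at 48 h. TMM factors were 0.889 to 0.922 in untreated libraries and 1.14 to 1.15 at 48 h, so the fall in level at 48 h rests on the scaling, whereas the share at 24 h was below that of every untreated library without it.

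Per kb of gene length, the most abundant of these RNAs in untreated scramble cells were CKS2 (158 CPM per kb), CDC20 (132), TOP2A (127), UBE2C (109) and TPX2 (106). The least abundant were CKAP2L (5.12 CPM per kb), NUSAP1 (4.56), CDC25C (4.12) and PRC1 (0.33). PRC1 had 441 counts over all libraries together, and a read-through gene that overlaps it, AC068831.7, had 1305, so its values are uncertain. The sources used here do not give whether the counting used strand. Genes on the opposite strand, or read through, may then have shared reads with CDC25C (FAM53C), FOXM1 (RHNO1), CENPA (SLC35F6), SPC25 (NOSTRIN), UBE2S (RPL28), KIF20A (CDC23 and BRD8), KIF4A (PDZD11) and ANLN (KIAA0895), each of which overlaps a gene that had counts of its own. These members, SPC24 and PRC1 are uncertain to that extent.

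**Figure D1:**
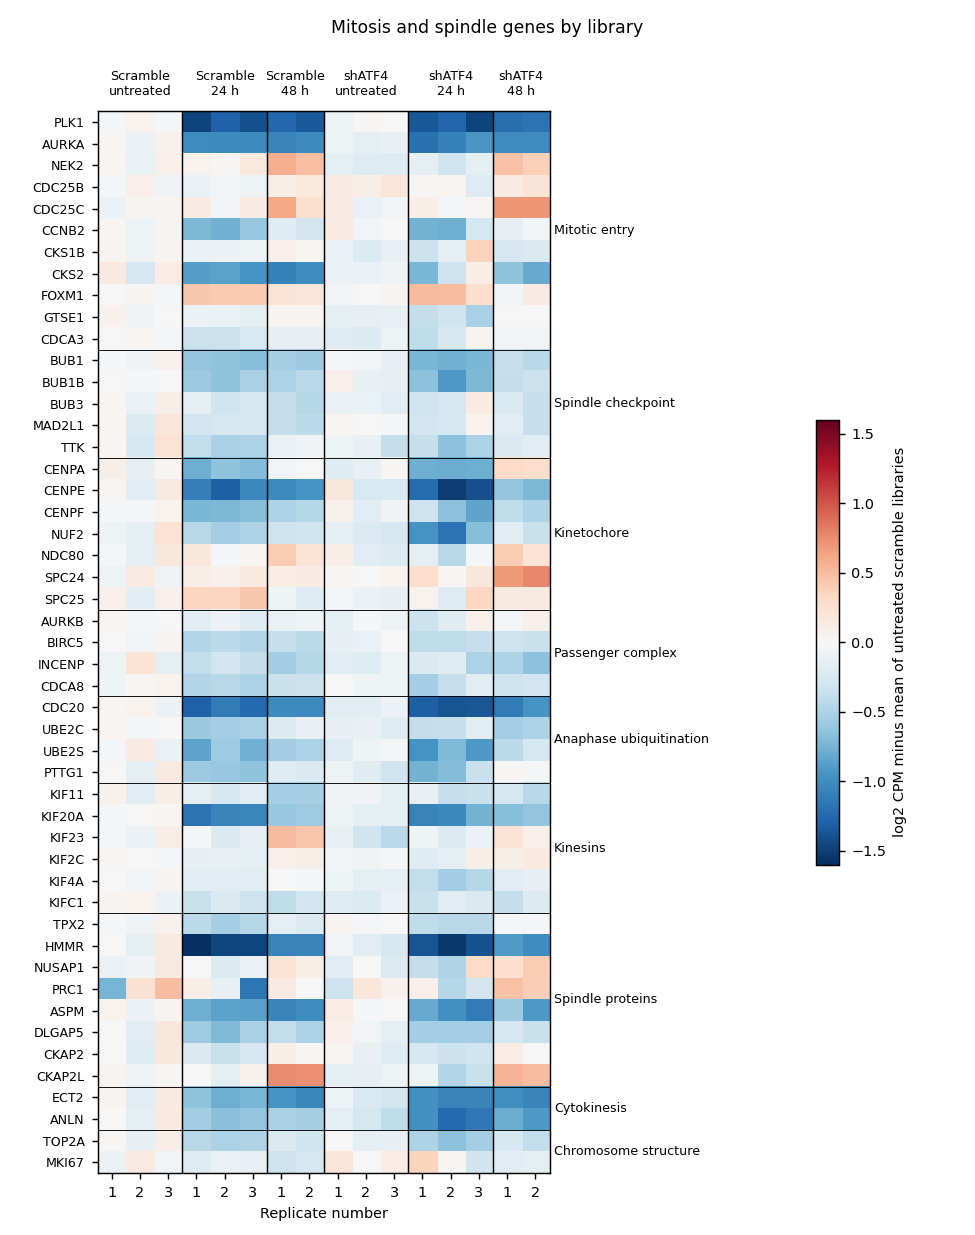
Each row is 1 of the 49 genes, in blocks by role, and each column is a library. Colour gives log2 CPM minus the mean of the 3 untreated scramble libraries (blue lower, red higher). PLK1, CDC20, HMMR and CENPE are the bluest rows in the 24 h columns of both lines and PLK1 is in the 48 h columns, whereas CKAP2L and NEK2 turn red at 48 h.

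Promoter sequences are shown for the 5 genes at least 2-fold lower at 24 h in scramble cells that have an entry in the table used (PLK1, CDC20, HMMR, CENPE and KIF20A), and for 3 that rose at 48 h (NEK2, KIF23 and CKAP2L), so that genes that moved in opposite directions can be compared. Each is the 250 bases before the start of transcription, 5′ to 3′ on the gene's strand, from RefSeq on GRCh38.p14. Capitals mark CHR letters (TTTGAA or TTCGAA, on either strand, so TTCAAA or TTCGAA on the other) and CCAAT boxes (CCAAT, or ATTGG on the other strand). In HMMR a CCAAT and an ATTGG share bases, and a pair of CHR matches adjoin.
PLK1, chr16:23678639-23678888, plus strand: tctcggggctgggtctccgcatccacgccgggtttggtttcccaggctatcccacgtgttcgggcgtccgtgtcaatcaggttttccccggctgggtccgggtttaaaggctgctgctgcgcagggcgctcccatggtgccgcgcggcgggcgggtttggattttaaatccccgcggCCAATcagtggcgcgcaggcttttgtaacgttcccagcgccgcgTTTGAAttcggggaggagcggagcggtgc
CDC20, chr1:43358731-43358980, plus strand: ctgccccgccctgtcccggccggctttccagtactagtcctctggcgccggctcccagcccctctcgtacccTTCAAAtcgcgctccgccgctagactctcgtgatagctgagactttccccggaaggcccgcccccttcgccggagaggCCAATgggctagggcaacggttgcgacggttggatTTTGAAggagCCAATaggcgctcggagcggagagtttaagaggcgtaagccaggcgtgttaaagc
HMMR, chr5:163460382-163460631, plus strand: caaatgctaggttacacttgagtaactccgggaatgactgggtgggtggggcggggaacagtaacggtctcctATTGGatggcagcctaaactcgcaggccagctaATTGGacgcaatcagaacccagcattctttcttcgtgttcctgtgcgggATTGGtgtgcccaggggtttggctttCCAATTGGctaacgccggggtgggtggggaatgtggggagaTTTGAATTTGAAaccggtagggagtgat
CENPE, chr4:103198344-103198593, minus strand: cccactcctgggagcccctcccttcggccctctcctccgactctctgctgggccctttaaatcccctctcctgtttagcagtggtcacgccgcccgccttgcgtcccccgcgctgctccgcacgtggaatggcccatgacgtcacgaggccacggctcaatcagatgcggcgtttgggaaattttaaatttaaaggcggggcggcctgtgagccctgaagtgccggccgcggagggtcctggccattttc
KIF20A, chr5:138178862-138179111, plus strand: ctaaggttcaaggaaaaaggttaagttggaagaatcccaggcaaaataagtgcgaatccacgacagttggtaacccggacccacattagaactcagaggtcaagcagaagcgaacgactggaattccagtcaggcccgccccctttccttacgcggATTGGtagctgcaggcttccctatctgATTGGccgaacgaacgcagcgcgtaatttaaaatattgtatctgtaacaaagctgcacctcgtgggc
NEK2, chr1:211675622-211675871, minus strand: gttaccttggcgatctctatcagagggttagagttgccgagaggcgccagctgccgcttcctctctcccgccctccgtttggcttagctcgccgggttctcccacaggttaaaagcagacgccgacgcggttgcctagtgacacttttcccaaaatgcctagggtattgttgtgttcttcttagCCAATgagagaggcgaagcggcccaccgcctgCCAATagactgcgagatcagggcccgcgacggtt
KIF23, chr15:69414099-69414348, plus strand: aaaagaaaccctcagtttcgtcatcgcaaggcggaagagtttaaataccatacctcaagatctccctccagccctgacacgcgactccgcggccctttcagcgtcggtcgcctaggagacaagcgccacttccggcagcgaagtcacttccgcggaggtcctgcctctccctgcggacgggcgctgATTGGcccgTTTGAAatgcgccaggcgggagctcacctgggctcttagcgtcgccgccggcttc
CKAP2L, chr2:112764610-112764859, minus strand: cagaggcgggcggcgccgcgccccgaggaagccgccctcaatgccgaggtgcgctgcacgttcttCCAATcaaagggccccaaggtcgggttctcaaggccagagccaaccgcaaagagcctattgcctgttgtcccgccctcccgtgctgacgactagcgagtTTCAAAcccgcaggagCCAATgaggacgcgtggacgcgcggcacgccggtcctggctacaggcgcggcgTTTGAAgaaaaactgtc

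PLK1 had 1 CCAAT box 73 to 69 bases and 1 CHR 29 to 24 bases before its start. In CDC20 the nearer CHR lay 65 to 60 bases before the start, between CCAAT boxes at 100 to 96 and 55 to 51 bases. HMMR had 5 CCAAT boxes and 2 adjoining CHR matches from 28 to 17 bases before the start. KIF20A and NEK2 each had 2 CCAAT boxes and no CHR, and CENPE had no match to either motif in these 250 bases. Among the genes that rose at 48 h, KIF23 had 1 of each, CKAP2L had 2 of each, and NDC80, which is not printed, had neither. Promoter entries matched 42 of the 49 genes. AURKA, BIRC5, BUB3, FOXM1, TPX2, TTK and UBE2C were not matched. Over the 37 genes with a single promoter entry, a CHR was found in 22 (59.46%), a CCAAT box in 30 (81.08%), 2 or more CCAAT boxes in 21 (56.76%) and both motifs in 20 (54.05%). Over 22114 genes with a single entry, the shares were 15.08%, 33.43%, 10.11% and 5.45%. Of 25 such genes that fell at 24 h in scramble cells 15 had a CHR and 20 a CCAAT box, and of 11 that did not pass 6 had a CHR and 9 a CCAAT box. These matches describe the letters in the window, and no test was made of them.

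At 24 h in scramble cells most of the 49 genes fell. The test called 33 lower and 2 higher, where 44.0% of all 17309 genes were called in either direction, 22.2% lower and 21.8% higher. The median log2 change was -0.45 over the 49 genes and -0.01 over all genes tested. HMMR, PLK1, CDC20, CENPE, KIF20A and AURKA fell at least 2-fold, and FOXM1 and SPC25 rose. After 48 h 26 genes were lower and 6 higher than untreated, where 60.7% of all genes were called, 30.0% lower and 30.6% higher, and the median was -0.27 against 0.03 over all genes. These last counts depend on scaling. With library totals in place of TMM, 25 genes were lower and 5 higher at 24 h, but 10 were lower and 19 higher at 48 h, and with upper-quartile scaling 22 were lower and 11 higher at 48 h. The total-count scaling raised the median change of all genes to 0.20 at 24 h and 0.39 at 48 h. Relative to the median of all genes the 49 genes had a median of -0.44 at 24 h and -0.30 at 48 h with either scaling. A change of scaling shifts every gene of a comparison by about the same amount. This difference therefore could not move, and it does not bear on which scaling holds. The 10 that stayed lower at 48 h under total-count scaling were PLK1, AURKA, CKS2, BUB1, CENPE, CDC20, KIF20A, HMMR, ASPM and ECT2, and all 6 that were higher stayed higher. Without scramble 48 h replicate 1, 3 genes in place of 6 were higher at 48 h. Both times share the untreated libraries.

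The shATF4 line gave 27 lower and 1 higher at 24 h, where 44.4% of all genes were called, 21.2% lower and 23.2% higher. At 48 h 22 were lower and 8 higher, where 58.3% of all genes were called, 28.7% lower and 29.6% higher. The medians were -0.26 at 24 h and -0.13 at 48 h, against 0.03 over all genes at both times. With total-count scaling 23 were lower and 4 higher at 24 h and 8 lower and 21 higher at 48 h, and with upper-quartile scaling 14 were lower and 15 higher at 48 h. The all-gene median with library totals was 0.13 at 24 h and 0.35 at 48 h. Relative to it the 49 genes had a median of -0.29 at 24 h and -0.16 at 48 h, differences that scaling cannot move. The count of 8 became 13 without the 2 libraries that stood apart. The 1 higher gene of 24 h became 2 without shATF4 untreated replicate 1 or shATF4 24 h replicate 1 or 2. Of the genes lower at 24 h 25 were shared by the lines, 75.8% of the 33 in scramble cells and 92.6% of the 27 in shATF4 cells. At 48 h 21 were shared, 80.8% of 26 and 95.5% of 22. Among genes higher at 48 h 5 were shared, 83.3% of 6 and 62.5% of 8. In the authors' deposited table, 33 of the 49 were lower and 2 higher at 24 h and 26 lower and 6 higher at 48 h in scramble cells, and 25 and 1, and 24 and 9, in shATF4 cells.

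**Figure D2:**
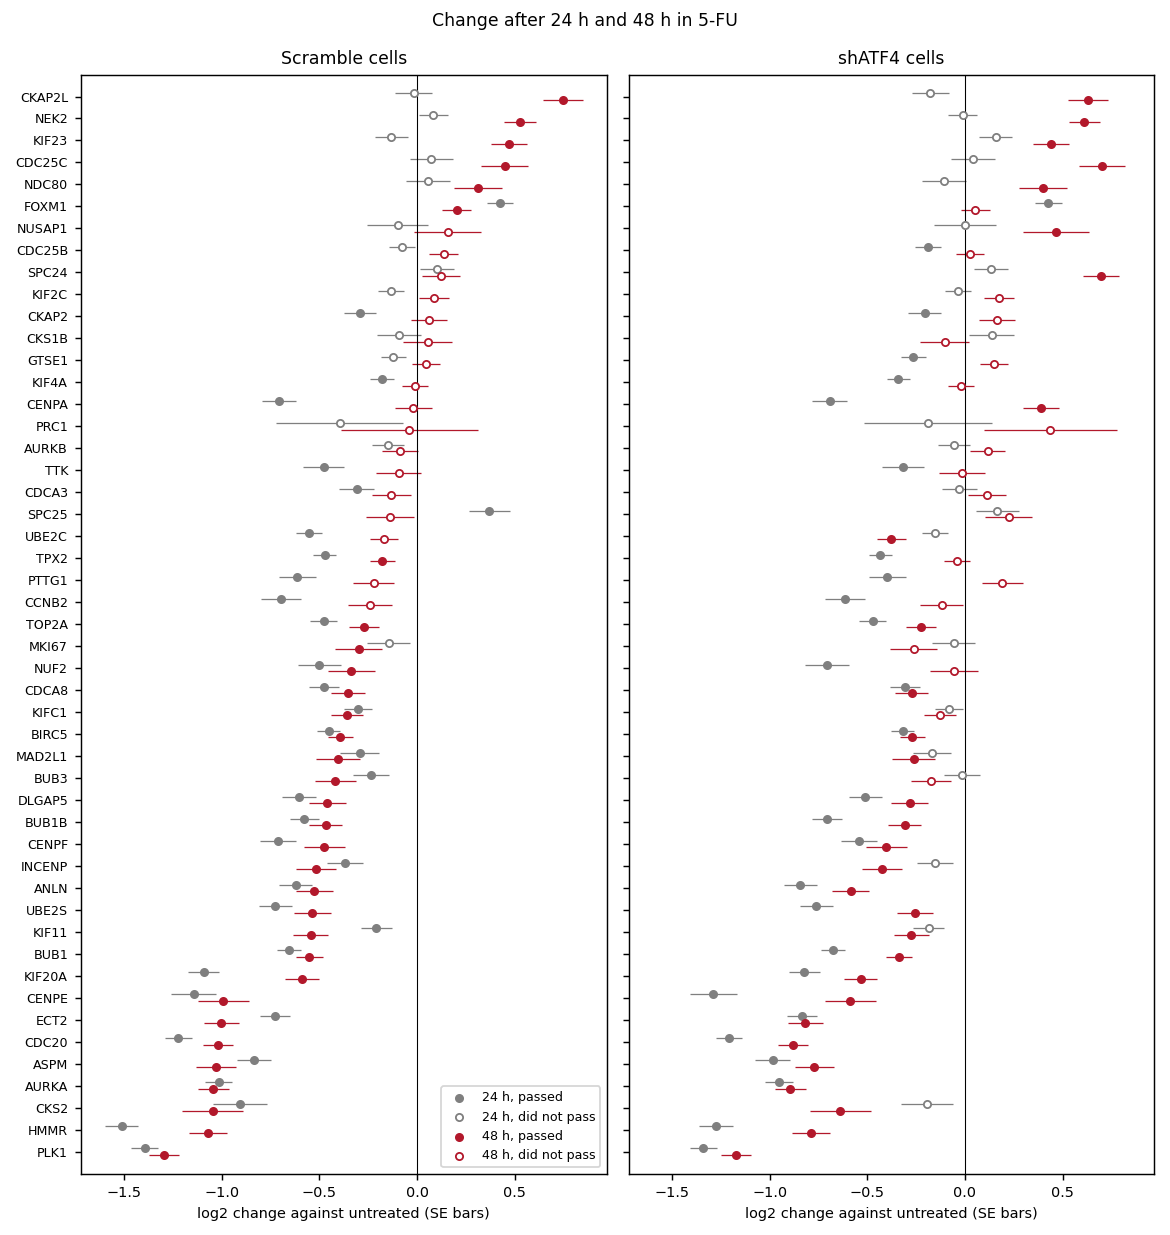
Points give the log2 change from untreated at 24 h (grey) and 48 h (red) for each of the 49 genes, ordered by the 48 h change in scramble cells, with SE bars. Filled points passed the test and open points did not. PLK1 and HMMR lie lowest and CKAP2L highest in scramble cells, on TMM-scaled values. With library totals the 48 h values sit higher, with 10 genes lower and 19 higher in scramble cells.

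**Figure D3:**
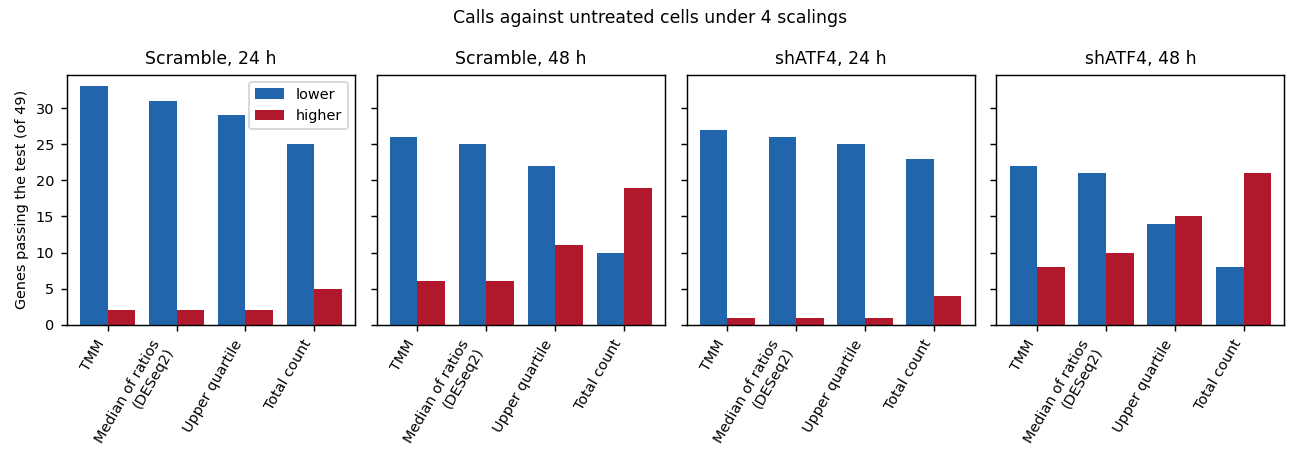
Bars count the genes of 49 that passed as lower (blue) or higher (red) than untreated, for each line and time, with 4 ways of scaling the libraries. At 24 h lower genes prevail under every scaling, and at 48 h the counts turn from 26 lower and 6 higher with TMM to 10 and 19 with library totals in scramble cells.

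Counts by role are small and stand against the shares over all genes, which in scramble cells were 22.2% lower and 21.8% higher at 24 h and 30.0% and 30.6% at 48 h. Of the 11 mitotic entry genes 5 fell and 1 rose at 24 h in scramble cells, and 3 fell and 3 rose at 48 h, the latter near those shares. PLK1, the kinase of spindle poles, kinetochores and cytokinesis (chromosome 16, 23677656 to 23690367, plus strand), had 257, 272 and 258 CPM untreated, 93.8, 107 and 98.4 CPM at 24 h and 109.8 and 104 CPM at 48 h in scramble cells. In shATF4 cells PLK1 had 248, 264 and 261 CPM untreated, 102, 109 and 94.2 CPM at 24 h and 113 and 115 CPM at 48 h. Every 5-FU library lay below every untreated one in both lines, and the 24 h and 48 h levels overlapped in scramble cells. In scramble cells the log2 change was -1.40 ± 0.07 at 24 h, a 2.63-fold fall, and -1.30 ± 0.08 at 48 h (adjusted p = 3.75e-12 and 1.52e-11). It was -1.34 ± 0.07 and -1.17 ± 0.08 in shATF4 cells (adjusted p = 7.66e-12 and 8.58e-11). AURKA, the kinase of centrosome maturation (chromosome 20, 56369389 to 56392337, minus strand), had 160.3, 148 and 165 CPM untreated, 78.4, 78.1 and 77.7 CPM at 24 h and 75.2 and 78.1 CPM at 48 h in scramble cells. It had 149, 143 and 146 CPM untreated, 69.1, 74.8 and 82.4 CPM at 24 h and 78.6 and 78.5 CPM at 48 h in shATF4 cells. Its untreated libraries were all higher than its 5-FU libraries, by about the same factor at both times. The changes were -1.02 ± 0.07 and -1.04 ± 0.08 in scramble cells and -0.95 ± 0.07 and -0.89 ± 0.08 in shATF4 cells, with adjusted p from 3.79e-10 to 5.41e-09.

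FOXM1, the forkhead activator of G2 and M genes (chromosome 12, 2857681 to 2877155, minus strand), went the other way. Its scramble libraries had 246, 254 and 240.4 CPM untreated, 334, 330.2 and 329 CPM at 24 h and 286 and 282 CPM at 48 h. Its shATF4 libraries had 240.2, 245 and 254 CPM untreated, 350.3, 347 and 297 CPM at 24 h and 240.1 and 271 CPM at 48 h. All 24 h libraries were above all untreated ones, and at 48 h the scramble libraries still were, whereas 1 shATF4 library lay just below the lowest untreated one. FOXM1 rose by 0.42 ± 0.07 at 24 h and 0.20 ± 0.07 at 48 h in scramble cells (adjusted p = 3.23e-05 and 0.0247) and by 0.43 ± 0.07 at 24 h in shATF4 cells (adjusted p = 2.94e-05). The 48 h change in shATF4 cells was 0.05 ± 0.08 (adjusted p = 0.569). The call at 48 h in scramble cells was lost without any 1 of 4 libraries (adjusted p = 0.0554 to 0.162, the highest without scramble 48 h replicate 1). RHNO1, which overlaps FOXM1 on the other strand, rose by 0.22 at 24 h and 0.26 at 48 h in scramble cells, and shared reads were not tested.

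NEK2, a centrosome kinase, and CDC25C, a phosphatase that activates the cyclin B kinase, were higher at 48 h in both lines. NEK2 had 75.8, 69.1 and 78.6 CPM untreated, 77.6, 75.5 and 83.3 CPM at 24 h and 111 and 103 CPM at 48 h in scramble cells. NEK2 in shATF4 cells had 66.9, 64.5 and 64.6 CPM untreated, 67.1, 59.6 and 67.4 CPM at 24 h and 103 and 96.7 CPM at 48 h. Its 24 h libraries lay within or near the untreated range and its 48 h libraries lay above all others of their line. The 48 h change was 0.53 ± 0.08 in scramble and 0.61 ± 0.08 in shATF4 cells (adjusted p = 8.84e-06 and 1.51e-06). CDC25C rose by 0.45 ± 0.12 and 0.70 ± 0.12 (adjusted p = 0.0031 and 3.43e-05) from a low level of 12.8 to 15.1 CPM in untreated cells. The former call was lost without scramble 48 h replicate 1 (adjusted p = 0.185), where the change was 0.24. FAM53C, which overlaps CDC25C and has more counts, rose by 0.50 and 0.46, and shared reads were not tested.

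The remaining entry genes differed among themselves. CCNB2, a B-type cyclin, had 109.7, 101 and 111 CPM untreated, 65.03, 63.1 and 70.5 CPM at 24 h and 93.9 and 87.8 CPM at 48 h in scramble cells. The shATF4 libraries had 118, 104 and 107 CPM untreated, 63.6, 62.5 and 88.3 CPM at 24 h and 97.5 and 104 CPM at 48 h. It fell at 24 h by 0.70 and 0.61 on the log2 scale in the 2 lines (adjusted p = 1.14e-05 and 4.99e-05), and at 48 h the changes were -0.24 ± 0.11 and -0.12 ± 0.11, neither of which passed. CDC25B, another activating phosphatase, had 373, 403 and 366 CPM untreated, 354, 368 and 359.9 CPM at 24 h and 411 and 426 CPM at 48 h in scramble cells. CDC25B in shATF4 cells had 417, 408 and 436 CPM untreated, 384, 390.1 and 329 CPM at 24 h and 418 and 437 CPM at 48 h. Its change passed, among the 4 comparisons with untreated cells, at 24 h in shATF4 cells only (-0.19 ± 0.07, adjusted p = 0.024), and that call was lost without any 1 of 3 libraries (adjusted p = 0.0501 to 0.0984, the highest without shATF4 24 h replicate 3). CKS1B, a small subunit of cyclin-dependent kinases, had 121, 112 and 122 CPM untreated, 111, 111 and 111 CPM at 24 h and 125 and 120.4 CPM at 48 h in scramble cells. In shATF4 cells it had 109.97, 102 and 109 CPM untreated, 93.4, 107 and 152 CPM at 24 h and 98.5 and 100.3 CPM at 48 h, with replicate 3 of the 24 h libraries above all others, and none of its 5-FU changes passed. Its relative CKS2 had 106, 80.2 and 105 CPM untreated, 52.4, 53.3 and 49.6 CPM at 24 h and 45.4 and 48.5 CPM at 48 h in scramble cells, with no overlap between untreated and 5-FU libraries. In shATF4 cells CKS2 had 90.1, 89.4 and 92.3 CPM untreated, 58.1, 76.6 and 102 CPM at 24 h and 61.5 and 54.97 CPM at 48 h. CKS2 fell in scramble cells at 24 h and 48 h (-0.91 ± 0.14 and -1.05 ± 0.16) and in shATF4 cells at 48 h (-0.64 ± 0.15), and the 24 h change there was -0.19 ± 0.14 (adjusted p = 0.258). GTSE1, a microtubule-binding protein of G2, fell at 24 h in shATF4 cells (-0.26 ± 0.07), and CDCA3, which takes part in degrading the mitosis inhibitor WEE1, fell at 24 h in scramble cells (-0.31 ± 0.09).

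**Figure D4:**
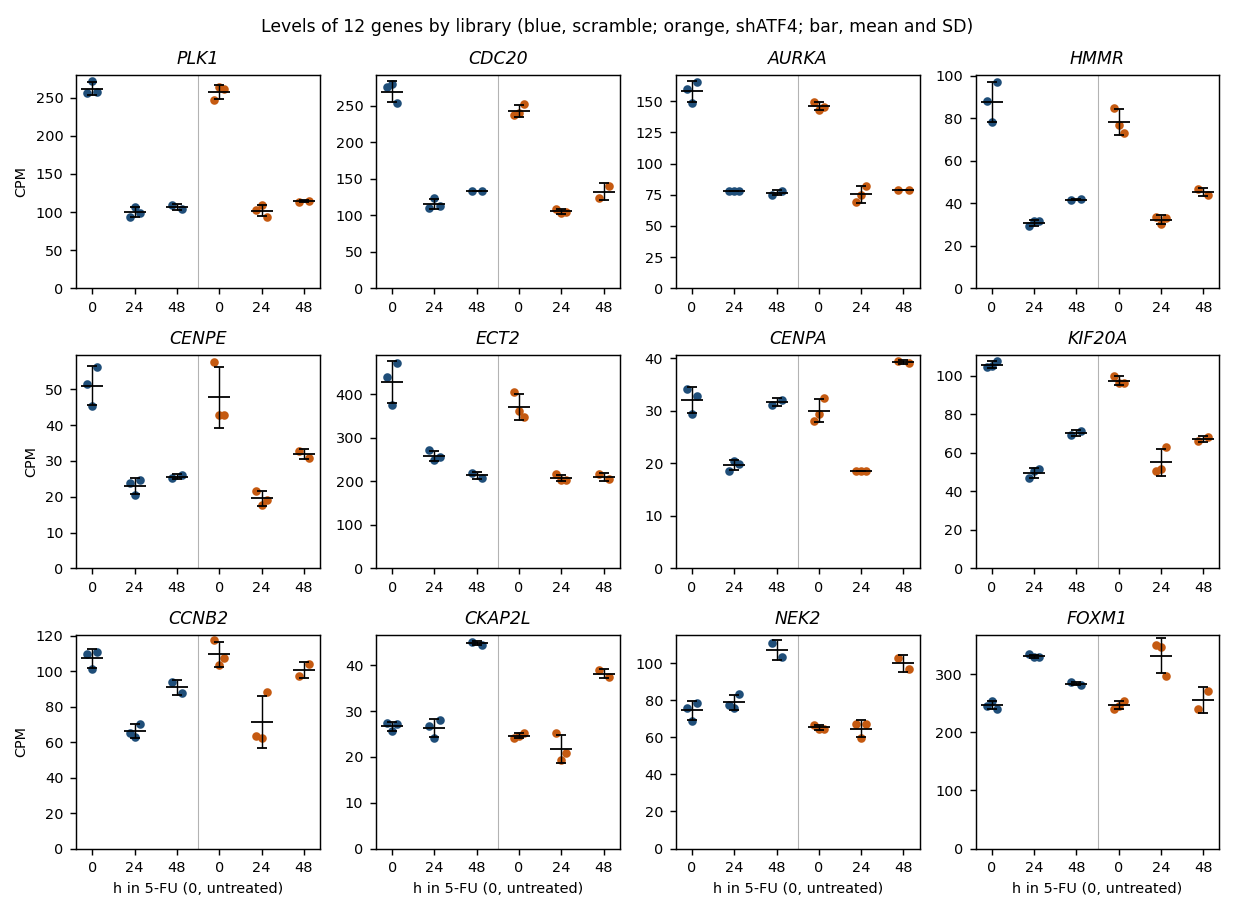
Panels give the CPM of 12 genes in each library (points), with the mean and SD of the group (bars), for scramble (blue) and shATF4 (orange) cells untreated, at 24 h and at 48 h. PLK1, CDC20, AURKA and HMMR are low at both times, CENPA is low at 24 h and at or above the untreated level at 48 h, and CKAP2L and NEK2 are high at 48 h, on the TMM scale.

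Of the spindle checkpoint genes 5 of 5 fell at 24 h in scramble cells and 3 of 5 in shATF4 cells, on the TMM scale. With library totals BUB1, BUB1B and TTK kept their 24 h calls in scramble cells, and BUB1 and BUB1B in shATF4 cells. On the TMM scale 4 fell at 48 h in scramble cells and 3 in shATF4 cells, but with library totals 1 of these, BUB1, stayed lower in scramble cells, and BUB1B, MAD2L1 and TTK were above 0 in shATF4 cells. BUB1, the kinase that recruits checkpoint proteins to kinetochores, had the largest fall of the 5 in scramble cells, -0.65 ± 0.06 at 24 h and -0.55 ± 0.07 at 48 h in scramble cells (adjusted p = 3.7e-08 and 7.12e-07). BUB1B, which encodes BUBR1 of the complex that inhibits CDC20, had 107, 104 and 107 CPM untreated, 71.1, 67.9 and 73.8 CPM at 24 h and 74.5 and 78.6 CPM at 48 h in scramble cells. BUB1B in shATF4 cells had 112, 97.4 and 97.1 CPM untreated, 67.00, 56.1 and 64.2 CPM at 24 h and 81.2 and 83.6 CPM at 48 h. No 5-FU library reached the untreated range of its line. The changes were -0.58 ± 0.08 and -0.47 ± 0.08 in scramble and -0.71 ± 0.08 and -0.31 ± 0.08 in shATF4 cells. BUB3, its partner, had 233, 213 and 244 CPM untreated, 208, 185 and 193 CPM at 24 h and 177 and 168 CPM at 48 h in scramble cells. In shATF4 cells BUB3 had 214, 214 and 203 CPM untreated, 184, 188 and 251 CPM at 24 h and 195 and 178 CPM at 48 h, and the 24 h and untreated libraries overlapped there through replicate 3. BUB3 fell by 0.24 ± 0.09 at 24 h and 0.42 ± 0.10 at 48 h on the log2 scale in scramble cells. The 24 h call was lost without any 1 of 9 libraries (adjusted p = 0.0512 to 0.159, the highest without scramble 24 h replicate 2). MAD2L1, which encodes MAD2, fell by 0.29 ± 0.10 at 24 h in scramble cells, a call that was lost without any 1 of 3 libraries (adjusted p = 0.0578 to 0.14, the highest without scramble untreated replicate 3), where the change was -0.19. TTK, the kinase MPS1, fell at 24 h in both lines (-0.48 ± 0.11 and -0.32 ± 0.11) and did not pass at 48 h (-0.09 ± 0.12 and -0.02 ± 0.12). Its 24 h call in shATF4 cells was lost without any 1 of 3 libraries (adjusted p = 0.0748 to 0.0955, the highest without shATF4 24 h replicate 2).

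Of the 7 kinetochore genes 4 fell and 1 rose at 24 h in scramble cells, and 3 fell and 1 rose at 48 h. CENPE, the kinesin that carries chromosomes to the spindle equator (chromosome 4, 103105806 to 103198409, minus strand), had 51.4, 45.3 and 56.2 CPM untreated, 23.8, 20.6 and 24.7 CPM at 24 h and 25.1 and 26.1 CPM at 48 h in scramble cells. In shATF4 cells it had 57.6, 42.8 and 42.8 CPM untreated, 21.7, 17.8 and 19.2 CPM at 24 h and 32.8 and 30.8 CPM at 48 h. All 5-FU libraries lay below all untreated ones. It fell by 1.14 ± 0.12 and 0.99 ± 0.13 on the log2 scale in scramble cells and by 1.29 ± 0.12 and 0.59 ± 0.13 in shATF4 cells. CENPF, a large outer kinetochore protein, had 344, 348 and 366 CPM untreated, 213, 213 and 219.6 CPM at 24 h and 251 and 256 CPM at 48 h in scramble cells. In shATF4 cells CENPF had 369, 312 and 339 CPM untreated, 281, 223 and 197 CPM at 24 h and 265 and 249 CPM at 48 h. It fell in all 4 comparisons, from -0.71 ± 0.09 at 24 h in scramble cells to -0.40 ± 0.10 at 48 h in shATF4 cells, with no overlap of the groups. CENPA, the histone H3 variant that marks centromeres, had 34.2, 29.4 and 32.8 CPM untreated, 18.6, 20.5 and 19.9 CPM at 24 h and 31.2 and 32.2 CPM at 48 h in scramble cells. In shATF4 cells CENPA had 28.1, 29.5 and 32.5 CPM untreated, 18.6, 18.5 and 18.6 CPM at 24 h and 39.6 and 39.1 CPM at 48 h. It was low at 24 h in both lines (-0.71 ± 0.09 and -0.69 ± 0.09), within the untreated range at 48 h in scramble cells (-0.02 ± 0.09, and 0.34 with library totals) and above it in shATF4 cells (0.39 ± 0.09, adjusted p = 0.00104). SLC35F6, which overlaps it, had changes of 0.47 at 24 h and 0.04 at 48 h in shATF4 cells.

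NDC80, NUF2, SPC24 and SPC25 encode the 4 subunits of the NDC80 complex, the microtubule coupler of the kinetochore, and did not move as 1 block. NUF2 fell at 24 h in both lines (-0.50 ± 0.11 and -0.71 ± 0.11) and at 48 h in scramble cells (-0.34 ± 0.12, but 0.02 with library totals), a call that was lost without any 1 of 3 libraries (adjusted p = 0.0733 to 0.141, the highest without scramble untreated replicate 3), where the change was -0.21. NDC80 did not pass at 24 h (0.06 ± 0.11 and -0.11 ± 0.11) and rose at 48 h, by 0.31 ± 0.12 in scramble and 0.40 ± 0.12 in shATF4 cells. The scramble call was lost without any 1 of 3 libraries (adjusted p = 0.0808 to 0.305, the highest without scramble 48 h replicate 1), where the change was 0.20, and the shATF4 call was lost without shATF4 48 h replicate 1 (adjusted p = 0.128). SPC25 rose at 24 h in scramble cells (0.37 ± 0.11, adjusted p = 0.00797) and was at 0.17 ± 0.11 in shATF4 cells. NOSTRIN, which overlaps SPC25 and has fewer counts, rose by 0.90 at 24 h in scramble cells. SPC24 had 23.7, 27.3 and 24.1 CPM untreated, 26.9, 26.1 and 27.6 CPM at 24 h and 27.04 and 27.5 CPM at 48 h in scramble cells. In shATF4 cells SPC24 had 25.6, 25.2 and 25.9 CPM untreated, 30.4, 25.3 and 28.2 CPM at 24 h and 40.2 and 42.7 CPM at 48 h. The 48 h libraries of shATF4 cells stood above all other libraries, and the 48 h change there was 0.70 ± 0.09 (adjusted p = 1.89e-06), against 0.12 ± 0.10 in scramble cells.

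Chromosomal passenger genes fell by at most 1.43-fold. The complex of AURKB, INCENP, BIRC5 (survivin) and CDCA8 (borealin) corrects wrong attachments and later guides cytokinesis. In scramble cells 3 of 4 fell at both times, and in shATF4 cells 2 at 24 h and 3 at 48 h. BIRC5 (chromosome 17, 78214186 to 78225636, plus strand) had 230.5, 224 and 238 CPM untreated, 166, 173 and 166 CPM at 24 h and 179 and 172 CPM at 48 h in scramble cells. In shATF4 cells BIRC5 had 211, 214 and 230.3 CPM untreated, 173, 174 and 178 CPM at 24 h and 183 and 179 CPM at 48 h. All 5-FU libraries were below all untreated ones. It fell by 0.45 ± 0.06 and 0.39 ± 0.07 on the log2 scale in scramble cells and by 0.32 ± 0.06 and 0.27 ± 0.07 in shATF4 cells, the last being 0.05 above 0 with library totals. AURKB, the kinase of the complex, had 158, 151 and 154 CPM untreated, 137, 144 and 135 CPM at 24 h and 144 and 147 CPM at 48 h in scramble cells. In shATF4 cells AURKB had 139, 151 and 146 CPM untreated, 121, 135 and 163 CPM at 24 h and 151 and 164 CPM at 48 h. None of its changes passed, from -0.15 ± 0.08 at 24 h in scramble cells to 0.12 ± 0.09 at 48 h in shATF4 cells. INCENP, the scaffold, had 193, 238 and 185 CPM untreated, 155, 166 and 156 CPM at 24 h and 139 and 148 CPM at 48 h in scramble cells. In shATF4 cells INCENP had 179.9, 178 and 193 CPM untreated, 173, 178 and 143 CPM at 24 h and 144 and 129 CPM at 48 h. It fell at 24 h and 48 h in scramble cells (-0.37 ± 0.09 and -0.52 ± 0.10) and at 48 h in shATF4 cells (-0.42 ± 0.10). CDCA8 fell in all 4 comparisons, by 0.48 ± 0.08 (log2) at 24 h in scramble cells and less in the others, and its 48 h values were 0.01 and 0.05 above 0 with library totals.

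Genes of ubiquitination at anaphase fell at 24 h, 4 of 4 in scramble and 3 of 4 in shATF4 cells, CDC20 by the most. CDC20, the activator of the anaphase-promoting complex (chromosome 1, 43358955 to 43363203, plus strand), had 276, 279 and 253 CPM untreated, 109.8, 124 and 113 CPM at 24 h and 133 and 133 CPM at 48 h in scramble cells. In shATF4 cells CDC20 had 237, 240.4 and 253 CPM untreated, 109, 103 and 104 CPM at 24 h and 124 and 140.4 CPM at 48 h. Its 5-FU libraries were far below the untreated ones and never overlapped them. In scramble cells it fell 2.33-fold after 24 h (-1.22 ± 0.07) and 2.03-fold after 48 h (-1.02 ± 0.08), with adjusted p = 2.14e-11 and 4.15e-10, and by 1.21 ± 0.07 and 0.88 ± 0.08 on the log2 scale in shATF4 cells. UBE2S, the enzyme that lengthens ubiquitin chains for this complex, had 256, 285 and 241 CPM untreated, 146, 175 and 152 CPM at 24 h and 177 and 183 CPM at 48 h in scramble cells. In shATF4 cells UBE2S had 226, 249 and 256 CPM untreated, 134, 159 and 138 CPM at 24 h and 194 and 213 CPM at 48 h. It fell by 0.73 ± 0.08 and 0.54 ± 0.09 in scramble cells and by 0.76 ± 0.08 and 0.26 ± 0.09 in shATF4 cells on the log2 scale, the last at 0.06 with library totals. That last call was lost without any 1 of 3 libraries (adjusted p = 0.0642 to 0.172, the highest without shATF4 48 h replicate 1). RPL28, a ribosomal protein gene that overlaps UBE2S and has more counts, fell by 0.62 and 0.98 in scramble cells, and shared reads were not tested. UBE2C, which starts the chains, had 143, 138 and 139.7 CPM untreated, 92.5, 96.3 and 97.7 CPM at 24 h and 120.1 and 129 CPM at 48 h in scramble cells. In shATF4 cells UBE2C had 128, 129 and 123 CPM untreated, 108, 109 and 124 CPM at 24 h and 96.4 and 98.5 CPM at 48 h. In scramble cells it was low at 24 h (-0.55 ± 0.07) and not called at 48 h (-0.17 ± 0.07, and 0.19 with library totals), and in shATF4 cells it was not called at 24 h (-0.15 ± 0.07) and low at 48 h (-0.38 ± 0.07). PTTG1, securin, fell at 24 h in both lines (-0.61 ± 0.09 and -0.40 ± 0.10) and did not pass at 48 h (-0.22 ± 0.11 and 0.19 ± 0.10).

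Among the kinesins KIF20A fell most and KIF23 rose. KIF20A, a motor of the midzone in cytokinesis (chromosome 5, 138178719 to 138187715, plus strand), had 104, 105 and 108 CPM untreated, 46.7, 50.7 and 51.4 CPM at 24 h and 69.4 and 71.5 CPM at 48 h in scramble cells. In shATF4 cells KIF20A had 100, 96.00 and 96.1 CPM untreated, 50.4, 51.8 and 62.9 CPM at 24 h and 66.03 and 68.4 CPM at 48 h. Untreated libraries were above all others, and 48 h libraries were above 24 h libraries. The changes were -1.09 ± 0.08 at 24 h and -0.59 ± 0.09 at 48 h in scramble cells and -0.82 ± 0.08 and -0.53 ± 0.09 in shATF4 cells. Of the genes that overlap it, BRD8 changed by -0.58 and CDC23 by -0.06 (not passed) at 24 h in scramble cells. KIF23, the kinesin of the centralspindlin complex, rose at 48 h by 0.47 ± 0.09 in scramble and 0.44 ± 0.09 in shATF4 cells, and at 24 h its changes were -0.13 ± 0.08 and 0.16 ± 0.08. KIF11, which pushes spindle poles apart, fell at 48 h (-0.55 ± 0.09 and -0.27 ± 0.09, the latter 0.05 with library totals). The latter call, in shATF4 cells, was lost without shATF4 48 h replicate 2 (adjusted p = 0.151). The 24 h call of KIF11 in scramble cells (-0.21 ± 0.08) was lost without any 1 of 8 libraries (adjusted p = 0.05 to 0.174, the highest without scramble 24 h replicate 2). KIFC1, a motor that clusters centrosomes, fell at 24 h and 48 h in scramble cells (-0.30 ± 0.07 and -0.36 ± 0.08). KIF4A, a chromosome-bound motor, fell at 24 h by 0.18 ± 0.06 in scramble and 0.34 ± 0.06 in shATF4 cells on the log2 scale. The scramble call was lost without any 1 of 4 libraries (adjusted p = 0.0547 to 0.0674, the highest without scramble 24 h replicate 3), and with library totals KIF11 was at 0.00 and KIF4A at 0.03 there. KIF2C, which removes tubulin at wrong attachments, passed in none of these 4 comparisons.

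Other spindle proteins held the gene with the largest fall at 24 h in scramble cells. HMMR, a spindle pole protein also known as a hyaluronan receptor (chromosome 5, 163460203 to 163491945, plus strand), had 88.1, 78.3 and 97.1 CPM untreated, 29.1, 31.7 and 31.5 CPM at 24 h and 41.6 and 41.9 CPM at 48 h in scramble cells. In shATF4 cells HMMR had 84.9, 76.8 and 73.1 CPM untreated, 33.6, 30.1 and 33.3 CPM at 24 h and 46.6 and 44.04 CPM at 48 h. Every 5-FU library was far below the untreated libraries, and 48 h was above 24 h in both lines. Scramble cells showed a 2.86-fold fall after 24 h (-1.51 ± 0.09, adjusted p = 3.04e-11) and one of 2.1-fold after 48 h (-1.07 ± 0.10), and HMMR fell by 1.28 ± 0.09 and 0.79 ± 0.10 on the log2 scale in shATF4 cells. TPX2, which activates AURKA and nucleates spindle microtubules, had 376, 368 and 402 CPM untreated, 285, 261 and 279 CPM at 24 h and 346 and 329 CPM at 48 h in scramble cells. In shATF4 cells TPX2 had 392, 377 and 381 CPM untreated, 289, 282 and 281 CPM at 24 h and 373 and 372 CPM at 48 h. It fell at 24 h in both lines (-0.47 ± 0.06 and -0.43 ± 0.06) and came near the untreated range at 48 h, where the call in scramble cells (-0.18 ± 0.06) was lost without any 1 of 2 libraries (adjusted p = 0.0846 to 0.155, the highest without scramble 48 h replicate 2), and the change in shATF4 cells (-0.04 ± 0.06) did not pass. With library totals TPX2 was at 0.18 and 0.28 at 48 h, on the other side of 0. ASPM, a spindle pole protein, fell by 0.84 ± 0.09 and 1.03 ± 0.10 in scramble cells and by 0.99 ± 0.09 and 0.77 ± 0.10 in shATF4 cells. DLGAP5, which stabilises kinetochore fibres, fell in all 4 comparisons as well, from -0.60 ± 0.08 to -0.28 ± 0.09. The last, at 48 h in shATF4 cells, did not keep its call with library totals. It was also lost without any 1 of 2 libraries (adjusted p = 0.0711 to 0.0972, the highest without shATF4 48 h replicate 2).

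CKAP2L, a spindle-associated protein also called radmis, was the member with the largest rise at 48 h in scramble cells. It had 27.4, 25.6 and 27.1 CPM untreated, 26.9, 24.2 and 28.1 CPM at 24 h and 45.2 and 44.5 CPM at 48 h in scramble cells. In shATF4 cells CKAP2L had 24.2, 24.5 and 25.3 CPM untreated, 25.2, 19.3 and 20.9 CPM at 24 h and 38.9 and 37.5 CPM at 48 h. The 24 h libraries lay around the untreated level and the 48 h libraries stood above all of them. The 48 h change was 0.75 ± 0.10 in scramble and 0.63 ± 0.10 in shATF4 cells (adjusted p = 1.8e-06 and 1.99e-05). Its relative CKAP2 fell at 24 h (-0.29 ± 0.08 and -0.21 ± 0.08) and was at 0.06 ± 0.09 and 0.16 ± 0.09 at 48 h. The 24 h call of CKAP2 in scramble cells was lost without scramble untreated replicate 3 (adjusted p = 0.0631), and that in shATF4 cells was lost without any 1 of 5 libraries (adjusted p = 0.0598 to 0.237, the highest without shATF4 untreated replicate 1). NUSAP1, which bundles microtubules, was low in all libraries (9.40 to 17.3 CPM) and rose at 48 h in shATF4 cells (0.47 ± 0.17), a call that was lost without any 1 of 3 libraries (adjusted p = 0.0605 to 0.15, the highest without shATF4 48 h replicate 2).

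Cytokinesis genes fell in every comparison with untreated cells. ECT2, the exchange factor that activates RhoA at the division site (chromosome 3, 172750682 to 172821474, plus strand), had 439, 375 and 472 CPM untreated, 272, 248 and 256 CPM at 24 h and 219.97 and 207 CPM at 48 h in scramble cells. In shATF4 cells ECT2 had 405, 361 and 347 CPM untreated, 217, 203 and 204 CPM at 24 h and 217 and 205 CPM at 48 h. All 5-FU libraries were below all untreated ones by a wide margin. It fell by 0.73 ± 0.08 and 1.004 ± 0.09 on the log2 scale in scramble cells and by 0.83 ± 0.08 and 0.82 ± 0.09 in shATF4 cells. ANLN, anillin of the contractile ring, fell by 0.62 ± 0.08 and 0.53 ± 0.09 in scramble cells and by 0.84 ± 0.09 and 0.58 ± 0.10 in shATF4 cells. With library totals all of these kept their direction, and ANLN at 48 h in scramble cells did not pass.

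The pair of chromosome genes differed at 24 h. TOP2A, the topoisomerase that disentangles sister chromatids and the most abundant of the 49 by CPM, had 831, 748 and 879.6 CPM untreated, 603, 574 and 588 CPM at 24 h and 699 and 656 CPM at 48 h in scramble cells. In shATF4 cells TOP2A had 813, 741 and 748 CPM untreated, 579, 517 and 562 CPM at 24 h and 687 and 624 CPM at 48 h. No 5-FU library overlapped the untreated ones. It fell by 0.48 ± 0.07 at 24 h and 0.27 ± 0.08 at 48 h on the log2 scale in scramble cells and by 0.47 ± 0.07 and 0.23 ± 0.08 in shATF4 cells. The 48 h call in scramble cells was lost without scramble 48 h replicate 2 (adjusted p = 0.0551), that in shATF4 cells was lost without any 1 of 2 libraries (adjusted p = 0.0733 to 0.16, the highest without shATF4 48 h replicate 2), and both were at 0.09 with library totals. MKI67, the proliferation marker Ki-67, had 496, 579 and 515 CPM untreated, 459, 489.9 and 487 CPM at 24 h and 422 and 439 CPM at 48 h in scramble cells. In shATF4 cells MKI67 had 606, 527 and 574 CPM untreated, 679, 538 and 423 CPM at 24 h and 469 and 479 CPM at 48 h, and the 24 h libraries there spread over a range wider than that of the untreated ones. Its 24 h changes were -0.15 ± 0.11 and -0.06 ± 0.11, and at 48 h it fell in scramble cells (-0.30 ± 0.12, but 0.06 with library totals), a call that was lost without any 1 of 4 libraries (adjusted p = 0.0512 to 0.15, the highest without scramble 48 h replicate 1).

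From 24 h to 48 h a group of these genes rose. In scramble cells 17 were higher and 4 lower at 48 h than at 24 h, where 38.3% of all genes were called, 18.8% higher and 19.5% lower, with a median of 0.17 against 0.02 over all genes. In shATF4 cells 27 were higher and 4 lower, where 48.2% were called, 23.7% higher and 24.5% lower, with a median of 0.26 against 0.01. All 17 and all 27 remained higher with library totals, which gave 30 and 38 in all. Without scramble 48 h replicate 1 the 17 became 7. CKAP2L rose by 0.76 ± 0.10 in scramble and 0.81 ± 0.10 in shATF4 cells (adjusted p = 4.87e-06 and 1.9e-06). CENPA rose by 0.69 ± 0.09 and 1.08 ± 0.09 (adjusted p = 8.48e-06 and 1.33e-08), the largest rise of a member in shATF4 cells. Others that rose in scramble cells were KIF23 (0.60), CCNB2 (0.46), NEK2 (0.44), PTTG1 (0.39), TTK (0.38) and TOP2A (0.20). Of these, TOP2A lost its call without any 1 of 8 libraries (adjusted p up to 0.343) and TTK without any 1 of 3 (up to 0.11). CCNB2 and PTTG1 lost theirs without scramble 48 h replicate 1 (adjusted p = 0.0515 and 0.0555). In shATF4 cells CDC25C (0.66), CENPE (0.70), PTTG1 (0.59), BUB1B (0.40), KIF4A (0.32), ANLN (0.26) and TOP2A (0.25) rose. There ANLN and TOP2A each lost the call without any 1 of 2 libraries (adjusted p up to 0.218 and 0.158). PLK1 and AURKA passed in neither line, at 0.10 ± 0.08 and -0.03 ± 0.08 in scramble cells.

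The lower genes of this step were SPC25 (-0.51 ± 0.12), KIF11 (-0.34 ± 0.09), ECT2 (-0.28 ± 0.09) and FOXM1 (-0.22 ± 0.08) in scramble cells and CKS2 (-0.44 ± 0.15), FOXM1 (-0.38 ± 0.08), INCENP (-0.27 ± 0.10) and UBE2C (-0.22 ± 0.07) in shATF4 cells. SPC25 alone of these kept its call with library totals. Without scramble 24 h replicate 1 or 48 h replicate 2, 2 of the scramble genes in place of 4 were lower, and without shATF4 48 h replicate 2, 1 of the shATF4 genes was. The call of CKS2 was lost without any 1 of 2 libraries (adjusted p = 0.149 to 0.158, the highest without shATF4 48 h replicate 2), and its change was -0.21 without shATF4 24 h replicate 3. In scramble cells 12 calls of this step were lost without some single library, and in shATF4 cells 11.

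Between shATF4 and scramble cells none of the 49 genes passed in the untreated state, where 2.92% of all genes were called, 1.84% lower and 1.08% higher. At that state 10 genes were lower and 1 higher at an unadjusted p under 0.05, and DESeq2 called 2 lower. The share of all genes at an unadjusted p under 0.05 was not taken, so the 10 and 1 have no background to stand against. Without the 2 libraries that stood apart 6 were lower and 1 higher, namely ANLN, KIF23, TTK, ECT2, PTTG1 and NEK2 lower, from -0.35 to -0.24, and CDC25B higher at 0.18. The count was 2 lower without scramble untreated replicate 2 or shATF4 24 h replicate 3 and 1 lower without shATF4 untreated replicate 1. At 24 h in 5-FU 7 genes were lower and 2 higher in shATF4 than in scramble cells, where 20.4% of all genes were called, 9.89% lower and 10.5% higher. ANLN (-0.50 ± 0.08, adjusted p = 0.000383), NUF2 (-0.43 ± 0.11), ECT2 (-0.31 ± 0.08), KIF4A (-0.29 ± 0.06), GTSE1 (-0.28 ± 0.06), NEK2 (-0.28 ± 0.07) and CKAP2L (-0.28 ± 0.09) were lower. ANLN had 218, 201 and 208 CPM in scramble and 163, 135 and 145 CPM in shATF4 libraries at 24 h, with no overlap. Without shATF4 24 h replicate 2, 4 in place of 7 were lower, and CKAP2L, NUF2 and NEK2 lost their calls there (adjusted p = 0.199, 0.0698 and 0.0599).

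CKS2 (0.61 ± 0.14, adjusted p = 0.00371) and UBE2C (0.25 ± 0.07, adjusted p = 0.0115) were higher at 24 h. The difference in CKS2 was 0.38 without shATF4 24 h replicate 3, still past the threshold (adjusted p = 0.0156). Without that library 4 genes were higher, and without scramble 24 h replicate 1, where the call of UBE2C was lost (adjusted p = 0.075), 1 was. At 48 h 1 gene was higher and 2 were lower, where 9.45% of all genes were called, 3.92% higher and 5.53% lower. In the untreated, 24 h and 48 h comparisons between the lines the members' counts thus lie near the background. SPC24 was higher (0.60 ± 0.10, adjusted p = 0.00057). UBE2C (-0.35 ± 0.08, adjusted p = 0.00735) and ANLN (-0.33 ± 0.10, adjusted p = 0.0444) were lower. The call of ANLN was lost without any 1 of 9 libraries (adjusted p = 0.0597 to 0.298, the highest without shATF4 48 h replicate 2). That of UBE2C was lost without any 1 of 2 libraries (adjusted p = 0.0689 to 0.118, the highest without scramble 48 h replicate 2). Without the libraries that stood apart 4 were higher and 4 lower at 48 h. UBE2C was thus higher in shATF4 cells at 24 h and lower at 48 h.

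The interaction contrast compares the change with 5-FU in shATF4 cells with that in scramble cells. At 24 h 1 of the 49 genes passed, higher in shATF4 cells, where 2.13% of all genes were called, 0.947% higher and 1.18% lower, again near the background. This was UBE2C (difference 0.40 ± 0.09, adjusted p = 0.03), which fell in scramble cells and did not pass in shATF4 cells. Its call was lost without any 1 of 10 libraries (adjusted p = 0.0509 to 0.105, the highest without scramble 24 h replicate 1), and with library totals none passed. CKS2 had the larger difference (0.71 ± 0.19) and missed the threshold with edgeR (adjusted p = 0.0572). It passed with DESeq2 (adjusted p = 0.0177) and without the 2 libraries that stood apart (difference 0.60, adjusted p = 0.00587). At 48 h 1 gene passed, SPC24, where 2.74% of all genes were called, 1.30% higher and 1.44% lower. The difference was 0.58 ± 0.14 (adjusted p = 0.0223), and the call was lost without any 1 of 4 libraries (adjusted p = 0.0622 to 0.114, the highest without scramble 48 h replicate 1). Without the 2 libraries that stood apart 7 genes passed at 48 h, with CKS2, PTTG1, CENPA, SPC25, KIF11 and BUB3 added. No gene passed as lower in shATF4 cells at either time, and none was lower at an unadjusted p under 0.05, against 6 higher at 24 h and 9 at 48 h. The share of all genes at that unadjusted threshold was not taken. The 6 and 9 therefore cannot be read as a trait of the members. For PLK1 the differences were 0.06 ± 0.10 and 0.12 ± 0.11, with 95% intervals of -0.16 to 0.27 and -0.12 to 0.36. For CDC20 they were 0.01 ± 0.10 and 0.14 ± 0.11, with intervals of -0.20 to 0.23 and -0.09 to 0.38.

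**Figure D5:**
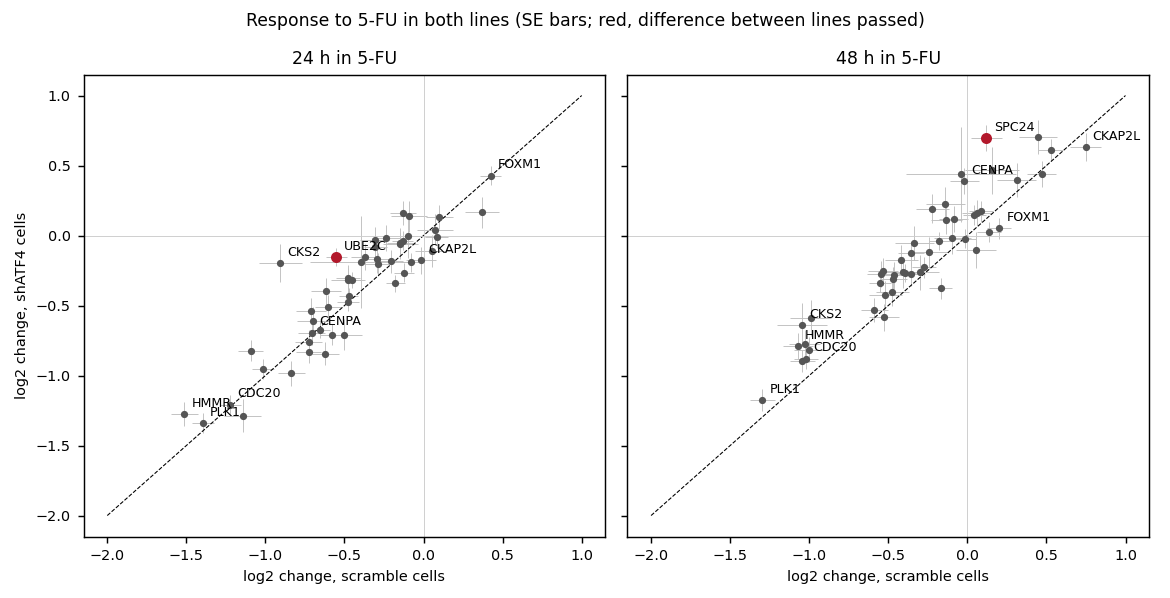
Each point is 1 of the 49 genes, with its log2 change in scramble cells on the horizontal axis and in shATF4 cells on the vertical axis, at 24 h and 48 h, with SE bars. The dashed line marks equal change, and red points, UBE2C at 24 h and SPC24 at 48 h, passed the test of the difference.

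Other genes of the same process were read from a list of 82 further mitosis genes. In scramble cells 38 were lower and 13 higher at 24 h and 48 lower and 9 higher at 48 h, with medians of -0.17 and -0.29. In shATF4 cells 39 were lower and 15 higher at 24 h and 40 and 15 at 48 h. All values of this list are on the TMM scale, and the other scalings, which moved the members' 48 h counts, were not read for it. All genes tested gave 22.2% lower and 21.8% higher at 24 h and 30.0% and 30.6% at 48 h in scramble cells, and 21.2% and 23.2%, and 28.7% and 29.6%, in shATF4 cells. The largest falls at 24 h in scramble cells were DEPDC1 (-1.12 ± 0.10) and FAM72A (-1.02 ± 0.17, a gene with near-identical copies and so uncertain), and the largest rises were MASTL (0.58), the Greatwall kinase, and SKA1 (0.56) of the kinetochore SKA complex. At 48 h they were LMNB1 (-1.42 ± 0.07), a nuclear lamin, and DEPDC1B (-1.04), and DSN1 (0.84 ± 0.10) of the MIS12 complex and SKA1 (0.72). In shATF4 cells the largest falls were FAM72A (-1.42) and DEPDC1 (-1.26) at 24 h and ANAPC1 (-1.11) and LMNB1 (-1.08) at 48 h. The largest rises were SKA3 (0.72) and CDC25A (0.67) at 24 h and SKA1 (1.20) and DSN1 (0.85) at 48 h. Between the lines 0 were higher and 4 lower untreated (LMNB1 and CCNA2 most, -0.36 and -0.34), 5 higher and 19 lower at 24 h (KIF15 and CENPK lowest, -0.49 and -0.45, KIF18B and WEE1 highest, 0.43 and 0.39), and 2 and 2 at 48 h. Those of 48 h were BORA (-0.56), FBXO5 (-0.41), MAD2L2 (0.28) and TUBB4B (0.34). Between the lines 1.84% of all genes were lower and 1.08% higher untreated. At 24 h 9.89% of all genes were lower and 10.5% higher, and at 48 h 5.53% and 3.92%.

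A list of 24 genes of the MuvB, E2F and NF-Y regulators, with CDKN1A, was read in the same way, on the TMM scale alone. In scramble cells 8 were lower and 6 higher at 24 h and 9 and 9 at 48 h, and in shATF4 cells 8 and 6, and 9 and 8. Over all genes the shares in scramble cells were 22.2% lower and 21.8% higher at 24 h and 30.0% and 30.6% at 48 h. In shATF4 cells they were 21.2% and 23.2%, and 28.7% and 29.6%. The counts of the 24 with 5-FU thus lie near the background. CDKN1A, which encodes the p21 inhibitor of cyclin-dependent kinases, had 2.27, 1.08 and 0.737 CPM untreated, 18.4, 20.4 and 21.1 CPM at 24 h and 49.8 and 50.5 CPM at 48 h in scramble cells. In shATF4 cells CDKN1A had 2.05, 1.94 and 1.36 CPM untreated, 15.7, 18.4 and 18.3 CPM at 24 h and 47.04 and 47.8 CPM at 48 h. Every 5-FU library was several times above every untreated one, and 48 h was above 24 h. Its log2 change was 3.90 ± 0.20 at 24 h and 5.22 ± 0.20 at 48 h in scramble cells and 3.28 ± 0.19 and 4.72 ± 0.19 in shATF4 cells. E2F2, an activator of S phase genes, rose by 1.25 and 1.77 in scramble cells and by 1.32 and 1.45 in shATF4 cells. MYBL2 rose by 0.76 ± 0.07 and 0.40 ± 0.07 in scramble cells. Genes of the repressors moved both ways. E2F5 fell by 0.75 ± 0.14 and 0.97 ± 0.16 on the log2 scale in scramble cells, and E2F4 by 0.65 ± 0.07 at 48 h. E2F8 rose by 1.01 ± 0.08 and 1.71 ± 0.09. Of the RB-like genes RBL1 was lower at 48 h (-0.45 ± 0.12) and RBL2 higher (0.23 ± 0.08). NFYB, a subunit of the factor that binds CCAAT boxes, fell by 0.70 ± 0.10 at 24 h in scramble and 1.02 ± 0.11 in shATF4 cells. Between the lines none of the 24 passed untreated. At an unadjusted p under 0.05 3 were lower there, and the share of all genes at that threshold was not taken. At 24 h 10 were called, 6 lower and 4 higher, where 20.4% of all genes were called, 9.89% lower and 10.5% higher. Of these RBL2 (-0.44) and RB1 (-0.42) were lowest and DYRK1A (0.32) and NFYA (0.27) highest.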

How the data were processed

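The members and gene lists were chosen with earlier results of these data known. Poly(A)-selected RNA was sequenced, per the labels' protocols, and the authors obtained gene counts on GRCh38 with featureCounts 1.5.0-p3, per the submitters' processing notes. The deposited counts used here are whole numbers without normalization. Aligner, annotation release and strand setting: not given in the sources used here. Lengths of genes in bp come from the same table, per the file headers. The authors' deposited log2 fold changes and adjusted p-values, per the file headers, are quoted as counts only, and the sources used here do not name the test behind them. Another 16 columns of FPKM values and 14 of group means were not used.

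With edgeR 4.0.16 under R 4.3.3, filterByExpr kept 17309 of 58735 genes (99.9% of counts). Libraries were scaled by TMM, and a quasi-likelihood model of 6 groups over 16 libraries left 10 residual degrees of freedom, so groups of 2 shared a spread estimated over every group, with a common biological coefficient of variation of 0.0847. There were 11 comparisons. P-values were Benjamini-Hochberg adjusted over all genes tested. Total counts were 14571611 to 17824188 per library, of reads without molecular identifiers. Standard errors rest on these counts and on the spread among libraries. Alternatives were DESeq2 1.42.0, upper-quartile and total-count scaling, other filters, a replicate block, fits to the compared groups alone and leaving out libraries. The fit was tested on simulated data with 200 changed genes. No 2 libraries were identical. All 49 members could be named. The text gives each library for the genes its results turn on, the largest fall and rise in each role, and from further lists the extremes of each comparison. Single promoters of 250 bases were searched on both strands.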

Additional observations from a re-analysis of the deposited data

Results flagged for a closer look

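UBE2C, which encodes the ubiquitin-conjugating enzyme that starts chains on targets of the anaphase-promoting complex, responded to 24 h of 5-FU differently in the 2 lines by the interaction test. The log2 change in shATF4 cells minus that in scramble cells was 0.40 ± 0.09 (SE, 3 libraries per group, adjusted p = 0.03 with edgeR's quasi-likelihood test). All 3 scramble 24 h libraries were below all untreated scramble libraries. In shATF4 cells the 24 h and untreated libraries overlapped through 24 h replicate 3 alone (124 CPM), a library that stood apart. Replicates 1 and 2 (108 and 109 CPM) were below all untreated shATF4 libraries (123 to 129 CPM). The call did not hold without most single libraries.

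SPC24, a subunit of the NDC80 complex, differed between the lines in its response to 48 h of 5-FU by the same test, with a difference of 0.58 ± 0.14 (SE, 3 untreated and 2 treated libraries per line, adjusted p = 0.0223). Both shATF4 48 h libraries were above all other libraries. Whether shared reads had a part in this value was not tested.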

How the results depend on the processing

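With library totals in place of TMM, values changed sign for these genes: at 24 h in scramble cells KIF11 (0.00) and KIF4A (0.03). At 48 h in scramble cells they were CDCA3 (0.23), CENPA (0.34), NUF2 (0.02), AURKB (0.27), CDCA8 (0.01), UBE2C (0.19), KIF4A (0.35), TPX2 (0.18), TOP2A (0.09) and MKI67 (0.06). At 48 h in shATF4 cells they were BUB1B (0.01), MAD2L1 (0.06), TTK (0.30), BIRC5 (0.05), CDCA8 (0.05), UBE2S (0.06), KIF11 (0.05), KIF4A (0.30), KIFC1 (0.19), TPX2 (0.28), DLGAP5 (0.04) and TOP2A (0.09). This scaling moved the median of all genes up, which by construction raises every member. Of 191 values that passed over the 11 comparisons it kept 140, upper-quartile scaling 168, DESeq2 186, a mean of at least 1 CPM 184, no filter 182, the compared groups alone 175 and the fit without the libraries that stood apart 186.

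Counts that moved by over 1.5 times were as follows. With library totals, 10 lower and 19 higher at 48 h in scramble cells, 8 and 21 in shATF4 cells, 5 higher at 24 h in scramble and 4 in shATF4 cells, 30 higher and 1 lower from 24 h to 48 h in scramble cells, 0 lower in shATF4 cells, 11 lower and 1 higher for knockdown at 24 h, and 0 for the 24 h interaction passed. With upper-quartile scaling 11 were higher at 48 h in scramble cells, 14 lower and 15 higher in shATF4 cells, and 2 and 1 lower from 24 h to 48 h. In fits to the compared groups alone 13 were higher at 48 h in shATF4 cells, 8 and 1 lower from 24 h to 48 h in scramble and shATF4 cells, 1 higher for knockdown at 24 h, 4 lower and 5 higher at 48 h, and 0 in the 24 h interaction. Without the 2 libraries that stood apart, 6 were lower and 1 higher for knockdown untreated, 4 higher at 24 h, 4 lower and 4 higher at 48 h, 13 higher at 48 h in shATF4 cells, and 2 and 7 in the interactions. Among smaller moves, that fit gave 35 lower at 24 h and 29 at 48 h in scramble cells and 31 lower at 24 h in shATF4 cells. From 24 h to 48 h it gave 22 higher in scramble and 30 in shATF4 cells. Without a filter 2 were lower for knockdown untreated, 4 lower at 48 h and 2 in the 24 h interaction, with DESeq2 2 lower untreated and 2 in that interaction, and with the 1 CPM filter 2 higher for knockdown at 48 h. The cause was not tested in these cases.

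Whether replicate numbers pair the libraries was not settled: of 36 same-numbered pairs 19 had correlated deviations above 0.1 (-0.364 to 0.397). The main fit had no term for replicate number. Over all genes a replicate block raised the calls from 506 to 591 between the untreated lines and from 369 to 644 in the 24 h interaction. With the replicate block 190 of the 191 values kept their call, 2 were lower for knockdown untreated, 2 higher for knockdown at 48 h and 2 in the 24 h interaction. Leaving out 1 library at a time gave 28 to 35 lower and 2 higher at 24 h and 22 to 29 lower and 3 to 7 higher at 48 h in scramble cells, and 24 to 30 lower and 1 to 2 higher, and 18 to 24 lower and 7 to 11 higher, in shATF4 cells. From 24 h to 48 h it gave 7 to 20 higher and 2 to 5 lower in scramble and 22 to 28 higher and 1 to 4 lower in shATF4 cells. For knockdown the ranges were 0 to 2 lower and 0 higher untreated, 4 to 8 lower and 1 to 4 higher at 24 h, and 0 to 4 lower and 1 to 3 higher at 48 h, and each interaction gave 0 to 2 higher and 0 lower. A lone 48 h library was assumed to vary like the other groups.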
